A study of Homo sapiens with 8 samples.

Results

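The proteasome genes described here are the protein-coding genes whose symbols run from PSMA to PSMG followed by a number. The count table of 60708 genes held 50 of them. Of these, 48 encode subunits, activators, inhibitors or assembly factors of the proteasome. The other 2 are named after a proteasome protein but are not among these, and are described last. They are PSMC3IP, a partner of the meiotic and DNA repair recombinases, and PSME3IP1, a protein that binds the activator PSME3. Polyadenylated RNA was sequenced from HS578T cells, a long-established line from a human breast carcinoma, with 2 biological replicates in each of 4 groups. HSF2oe TGF-β cells received 25 µg of a plasmid encoding the transcription factor HSF2 and, a day later, 10 ng/ml TGF-β1 for 24 h. HSF2oe control cells received the same plasmid and assay medium alone. Mock TGF-β and Mock control cells received a plasmid encoding green fluorescent protein in place of HSF2, with and without the cytokine. All 4 groups were therefore transfected, cultured in the same assay medium and harvested at the same time, and overexpression was from a plasmid in a mixed population of cells. By its title, the series is about HSF2 in the growth and spread of breast cancer cells.

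The proteasome is the protease that degrades proteins marked with ubiquitin. Its 20S core is a barrel of alpha rings (PSMA genes) around beta rings (PSMB genes), of which PSMB5, PSMB6 and PSMB7 carry the active sites. The 19S regulatory particle caps the barrel: its base holds ATPases that unfold substrates (PSMC genes) and scaffold subunits (some PSMD genes), and its lid holds the deubiquitinase PSMD14. In immune cells, and in other cells exposed to interferon, PSMB8, PSMB9 and PSMB10 replace the constitutive catalytic subunits to form the immunoproteasome, which is known for producing peptides for class I antigen presentation. PSME1 and PSME2 form the interferon-inducible activator PA28αβ, PSME3 is the nuclear activator PA28γ, PSME4 is the activator PA200, and PSMF1 encodes PI31, first described as an inhibitor. HSF2 belongs to the heat shock factors, which bind heat shock elements.

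The genes whose level fell with HSF2 overexpression and, for 4 of the 5, also with TGF-β were the immunoproteasome subunits PSMB8, PSMB9 and PSMB10 and the activator subunits PSME1 and PSME2. For 4 of them, stretches before the RefSeq start (GRCh38.p14) are printed 5′ to 3′ on the strand of the gene. The genes were chosen because they fell with HSF2oe averaged over both treatments. Capitals mark matches, on either strand, to an antioxidant response element core (TGACNNNGC), CCAAT, or an interferon-stimulated response element (GAAA, any 2 bases, GAAA). The PSMB9 stretch lies at chr6:32853942-32854147 (plus strand), PSMB10 at chr16:67936851-67937100 (minus strand), PSME1 at chr14:24135944-24136162 (plus strand) and PSME2 at chr14:24146611-24146640 (minus strand). No stretch is printed for PSMB8. The PSMB8 window held no match to any motif searched. The exonic parts of the PSMB9 and PSME1 windows are left out, and the last 14 bases of the PSMB10 stretch are annotated as exon. The whole PSME2 window of 250 bases is annotated as an exon of PSME2 in the count table. Only its last 30 bases, which hold its interferon-stimulated match, are shown.
PSMB9: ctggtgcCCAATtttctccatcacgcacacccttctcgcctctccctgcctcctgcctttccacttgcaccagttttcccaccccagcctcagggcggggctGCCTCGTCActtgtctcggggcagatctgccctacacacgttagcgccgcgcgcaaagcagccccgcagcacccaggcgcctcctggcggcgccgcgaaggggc
PSMB10: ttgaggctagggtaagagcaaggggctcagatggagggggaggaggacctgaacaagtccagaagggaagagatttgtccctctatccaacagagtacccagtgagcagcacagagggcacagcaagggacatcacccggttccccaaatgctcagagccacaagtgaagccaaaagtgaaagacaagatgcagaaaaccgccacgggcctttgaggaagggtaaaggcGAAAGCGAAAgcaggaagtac
PSME1: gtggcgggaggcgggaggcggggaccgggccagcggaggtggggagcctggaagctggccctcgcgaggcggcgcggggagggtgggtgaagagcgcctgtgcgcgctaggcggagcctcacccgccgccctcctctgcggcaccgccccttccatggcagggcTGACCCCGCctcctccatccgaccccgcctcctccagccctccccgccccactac
PSME2: gtGAAAGCGAAAgcccgggcgactagccgg

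PSMB10 and PSME2, on different chromosomes, held the same 10 letters, GAAAGCGAAA, ending 12 and 19 bases before their starts. The interferon-stimulated motif was also in the windows of PSMA4, PSMB4 and PSMG4, which had 0 calls in every comparison. The interferon-stimulated and gamma-activated (TTCNNNGAA) motifs were added to the search after the expression values had been seen. Among windows of 250 bases before the start, the interferon-stimulated motif was in 5 of the 42 proteasome genes that had a window (11.9%) and in 3.07% of the 27305 windows of all genes. TTCNNNGAA was in 5 of 42 (11.9%) and in 6.76% of all windows, and in 0 of the 5 genes that fell. The antioxidant response element core, the kind of site bound by the NRF1 and NRF2 factors that control proteasome genes, was in 11 of 42 (26.2%), PSMB9, PSME1 and PSME2 (outside the bases shown) among them, and in 11.1% of all windows. A heat shock element, written as GAA, TTC and GAA with any 2 bases between them, was in 0 of 42 windows and in 0.443% of all windows. CCAAT was in 18 of 42 (42.9%) and in 33% of all windows. These are matches of letters, and no binding was measured.

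Total gene counts ran from 17427645 to 34336107 per library. HSF2 itself checks the plasmid labels, but not the TGF-β labels. It had 780 and 489 CPM (counts scaled by library total and TMM factor) in HSF2oe TGF-β cells and 937 and 616 CPM in HSF2oe control cells. Mock TGF-β cells had 5.4 and 5.76 CPM of HSF2, and Mock control cells 8.36 and 6.44 CPM. The label of an epithelial cell did not go with every epithelial marker: EPCAM and KRT19 reached at most 0.128 and 0.193 CPM and CDH1 at most 1.17 CPM, whereas KRT18 reached 275 CPM and the mesenchymal genes VIM, CDH2, FN1, SPARC and COL1A1 were at 463 CPM or more in every library. Groups were taken from the sample titles, which the design text matches. The labels' treatment field contradicts both, since it gives DMSO to all Mock and TGFb1 to all HSF2oe samples.

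Of the 50 genes, 48 passed the filter on low counts. PSMA8, the testis-specific alpha subunit, and PSMB11, the thymus-specific beta subunit, had 0 counts in every library, which allows a level of up to 0.0851 to 0.195 CPM depending on the library (3 counts, counting error only). Levels of different genes are set side by side per exonic length (TPM, computed from the counts and lengths). This length covers every annotated exon, whether or not it was used in these cells, so genes with many annotated bases can appear low. It was 1752 bases for PSMA7 and 5734 for PSMA5, whose Mock control means were 245 and 88 CPM. On this measure the constitutive beta subunits were even, with mean levels over the 8 libraries between 149 TPM for PSMB2 and 328 TPM for PSMB6. The alpha subunits were not: PSMA7 had 580 TPM, the next 3, PSMA5, PSMA3 and PSMA4, had 64.1, 55.7 and 39 TPM, PSMA6 had 10 TPM, and PSMA2 had 0.357 TPM on 157 counts in all 8 libraries together. PSMA2 shares 29.7% of its exonic bases with other genes, among them a readthrough gene that held 8 counts, and reads that fell on 2 genes were counted for neither, so its level here is uncertain. The same holds, with smaller or larger shares, for PSMA1 (26.7%), PSMA6 (14.1%), PSMB10 (39.4%), PSMD7 (31.2%), PSMC1 (76.1%), PSMB8 (17.3%), PSMD9 (17.7%), PSMC5 (15.3%) and PSMG4 (15%).

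The highest per-length level of all was that of PSMD2, the base scaffold that receives ubiquitin-like domains, with a mean of 802 TPM. The ATPases ranged from 23.2 TPM for PSMC1 to 355 TPM for PSMC3, and the lid from 36.9 TPM for PSMD12 to 271 TPM for PSMD8. The activators and PI31 lay between 43.2 TPM for PSMF1 and 111 TPM for PSME3. The immunoproteasome subunits were low, with means of 22.6 TPM for PSMB8, 11.4 TPM for PSMB9 and 8.66 TPM for PSMB10. Their libraries spread widely: PSMB9 ran from 3.14 to 21.8 TPM and PSMB8 from 10.9 to 37.9 TPM.

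**Figure D1:**
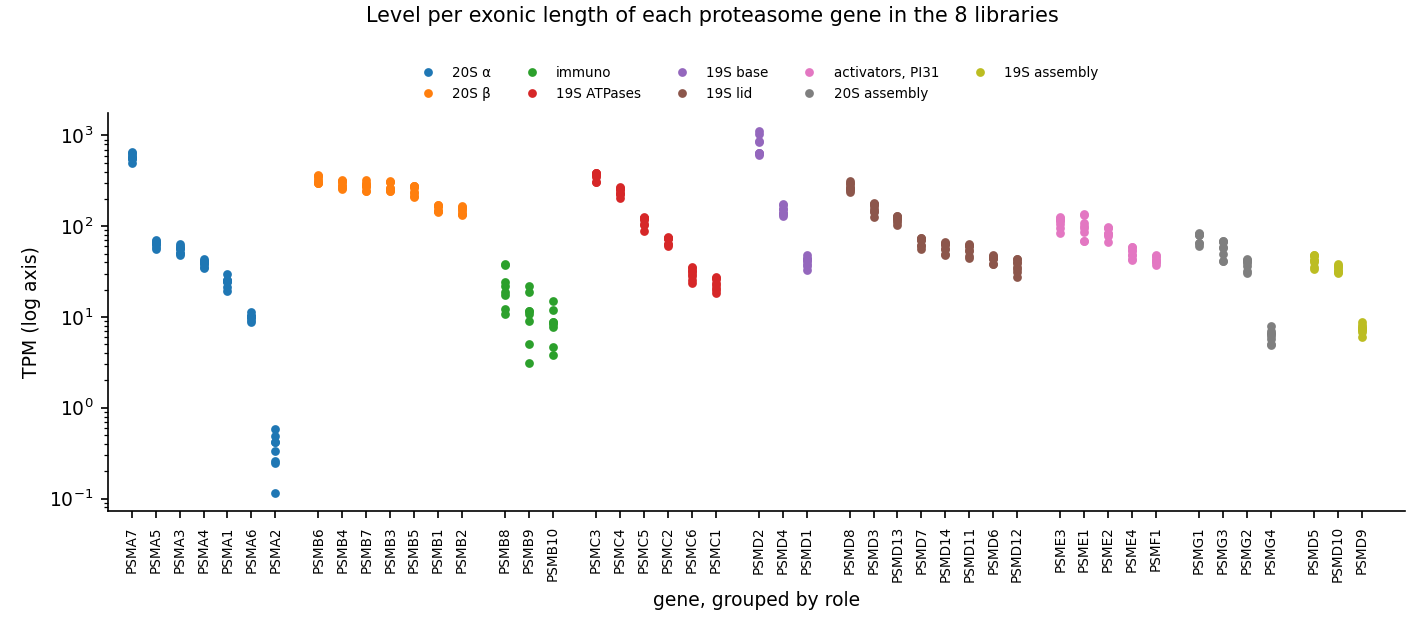
Level per exonic length (TPM, logarithmic vertical axis) of each proteasome gene, grouped by role on the horizontal axis; each point is 1 of the 8 libraries. PSMD2 stands highest at a mean of 802 TPM, and the immunoproteasome subunits PSMB8, PSMB9 and PSMB10 lie below the constitutive beta subunits and spread more between libraries.

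The 48 genes tested include PSMC3IP and PSME3IP1, which are not proteasome genes. Counted over these 48, the shares of members that rose or fell are given beside those of all genes. Several were near them, those for HSF2oe over Mock without TGF-β among them. None of the differences in share was tested. With HSF2oe over Mock averaged over both treatments, 5 rose (10.4%) and 5 fell (10.4%), against 15.2% and 17.3% of the 16008 genes tested (edgeR quasi-likelihood test, Benjamini-Hochberg adjusted p under 0.05 over all genes). With TGF-β over control averaged over both transfections, 2 rose (4.17%) and 6 fell (12.5%), against 10.1% and 10% of all genes. PSMC3IP is among these HSF2oe rises and these TGF-β falls. The 46 proteasome genes alone had 4 rises and 5 falls with HSF2oe averaged, and 2 rises and 5 falls with TGF-β averaged. That count of TGF-β falls was near the 10% of all genes. In the single comparisons, HSF2oe over Mock with TGF-β gave 3 rises (6.25%) and 5 falls (10.4%) against 9.6% and 11.9%. HSF2oe over Mock without TGF-β gave 2 rises (4.17%) and 3 falls (6.25%) against 4.88% and 7.22%. TGF-β over control gave 1 rise (2.08%) and 4 falls (8.33%) in HSF2oe cells against 4.45% and 3.82%, and 1 rise (2.08%) and 5 falls (10.4%) in Mock cells against 7.32% and 6.5%. The comparisons share libraries and are not independent of each other.

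The difference between the TGF-β effects of HSF2oe and Mock cells was past the threshold for 0 of 48 members by edgeR, DESeq2 or limma, as for 0% of all genes by edgeR, with 1 member, PSMC3IP, at an unadjusted p under 0.05. DESeq2 called 23 genes of the whole table for that difference. The median log2 fold change of the 48 genes was 0.04 for HSF2oe and 0.00 for TGF-β, beside 0.00 and -0.01 for all genes. Scaling by library totals alone moved the median of all genes to 0.14 for HSF2oe and -0.22 for TGF-β. On that scale 19 members rose and 4 fell with HSF2oe, and 0 rose and 23 fell with TGF-β, so the split of small changes depended on the scaling.

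The 3 catalytic subunits of the immunoproteasome fell with HSF2oe and with TGF-β, each averaged over the other factor. With either treatment alone PSMB8 and PSMB9 passed the threshold and PSMB10 did not. PSMB8 had 10.7 and 8.78 CPM in HSF2oe TGF-β cells, 17.1 and 18.7 CPM in HSF2oe control cells, 17.8 and 16.1 CPM in Mock TGF-β cells and 30.4 and 30.5 CPM in Mock control cells. The pairs of libraries did not overlap in any of the 4 comparisons of 2 groups. HSF2oe alone and TGF-β alone left PSMB8 at about the same level, and together they left it at 32% of the Mock control mean. Averaged over the other factor, PSMB8 fell by 0.78 with HSF2oe (log2, SE 0.09, adjusted p = 4.84e-05, edgeR) and fell by 0.86 with TGF-β (SE 0.09, adjusted p = 1.55e-05). All 4 comparisons of 2 groups were past the threshold, with log2 fold changes of -0.79 for HSF2oe over Mock in the presence of TGF-β and -0.77 in its absence, and -0.87 and -0.85 for TGF-β over control in HSF2oe and Mock cells, and none of these 6 calls was lost when any 1 library was left out. The TGF-β effects on PSMB8 in HSF2oe and Mock cells differed by -0.02 (95% interval -0.41 to 0.36).

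PSMB9 had 4.3 and 2.43 CPM in HSF2oe TGF-β cells, 8.61 and 7.94 CPM in HSF2oe control cells, 10.4 and 7.97 CPM in Mock TGF-β cells and 16.7 and 14.6 CPM in Mock control cells. The mean with both treatments was 21.5% of the Mock control mean, and the libraries of the 2 groups in each comparison did not overlap. PSMB9 fell by 1.17 with HSF2oe (SE 0.15, adjusted p = 1.17e-04, edgeR) and fell by 1.02 with TGF-β (SE 0.15, adjusted p = 3.03e-04), both averaged. The single comparisons were past the threshold as well, at -1.41 for HSF2oe over Mock in the presence of TGF-β and -0.92 in its absence, and -1.27 and -0.78 for TGF-β in HSF2oe and Mock cells. The TGF-β call in Mock cells was lost without Mock control 1 or Mock TGF-β 2 (adjusted p = 0.138 and 0.206, edgeR), and the HSF2oe call without TGF-β was lost without Mock control 1, HSF2oe control 1 or HSF2oe control 2 (adjusted p = 0.0572, 0.0712 and 0.0599). The difference of the TGF-β effects was -0.49 (95% interval -1.15 to 0.17).

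PSMB10 had 1.59 and 1.75 CPM in HSF2oe TGF-β cells, 3.24 and 3.19 CPM in HSF2oe control cells, 3.71 and 3.35 CPM in Mock TGF-β cells and 5.66 and 4.48 CPM in Mock control cells, on 730 counts in all libraries. Both TGF-β and both HSF2oe comparisons again ran without overlap, and the level with both treatments was 32.9% of the Mock control mean. PSMB10 fell by 0.86 with HSF2oe (SE 0.16, adjusted p = 0.0013, edgeR) and fell by 0.74 with TGF-β (SE 0.16, adjusted p = 0.00468), both averaged. It passed the threshold for HSF2oe over Mock with TGF-β (-1.08, adjusted p = 0.0074) and for TGF-β in HSF2oe cells (-0.95, adjusted p = 0.0221), with values of -0.65 (adjusted p = 0.0604) for HSF2oe over Mock without TGF-β and -0.52 (adjusted p = 0.152) for TGF-β in Mock cells. The TGF-β call in HSF2oe cells was lost when any 1 of its 4 libraries was left out (adjusted p = 0.0789 to 0.136) and when those 4 were fitted alone (0.0601), and the HSF2oe call with TGF-β was lost without HSF2oe TGF-β 1 (adjusted p = 0.0641). PSMB10 shares 39.4% of its exonic bases with a neighbouring gene. PSMB8 and PSMB9 share bases with each other on opposite strands (17.3% of PSMB8, the antisense gene PSMB8-AS1 included), and counting ignored strand.

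None of their constitutive counterparts passed the threshold. PSMB5 had 92.8 and 100 CPM in HSF2oe TGF-β cells, 90.6 and 94.7 CPM in HSF2oe control cells, 88.6 and 88.3 CPM in Mock TGF-β cells and 97.9 and 85.1 CPM in Mock control cells. Its averaged log2 fold changes were 0.07 with HSF2oe (95% interval -0.08 to 0.22) and 0.00 with TGF-β (-0.15 to 0.16), so that a change as large as that of PSMB8 lay outside these intervals. PSMB6 ran from 102 to 121 CPM and PSMB7 from 112 to 127 CPM over the 8 libraries, with averaged changes between -0.05 and 0.10, none past the threshold. The level per length of PSMB8 as a percentage of that of PSMB5, which no library scaling touches, was 5.14% and 3.9% in HSF2oe TGF-β cells, 8.38% and 8.79% in HSF2oe control cells, 8.97% and 8.11% in Mock TGF-β cells and 13.8% and 16% in Mock control cells. The corresponding means were 1.29% ± 0.583, 3.3% ± 0.492, 3.43% ± 0.624 and 5.87% ± 0.283 for PSMB9 over PSMB6 (SD, n = 2 each), in the same order of groups. For PSMB10 over PSMB7 they were 1.46% ± 0.12, 2.89% ± 0.169, 3.31% ± 0.195 and 4.88% ± 0.667. In all 3 pairs the immunoproteasome subunit was a minor form in every library and had its smallest share in HSF2oe TGF-β cells. The size of these percentages, though not their order between groups, depends on the annotated lengths, 3480 bases for PSMB8 and 1549 for PSMB5. In CPM the Mock control means were 30.5 for PSMB8 and 91.5 for PSMB5.

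**Figure D2:**
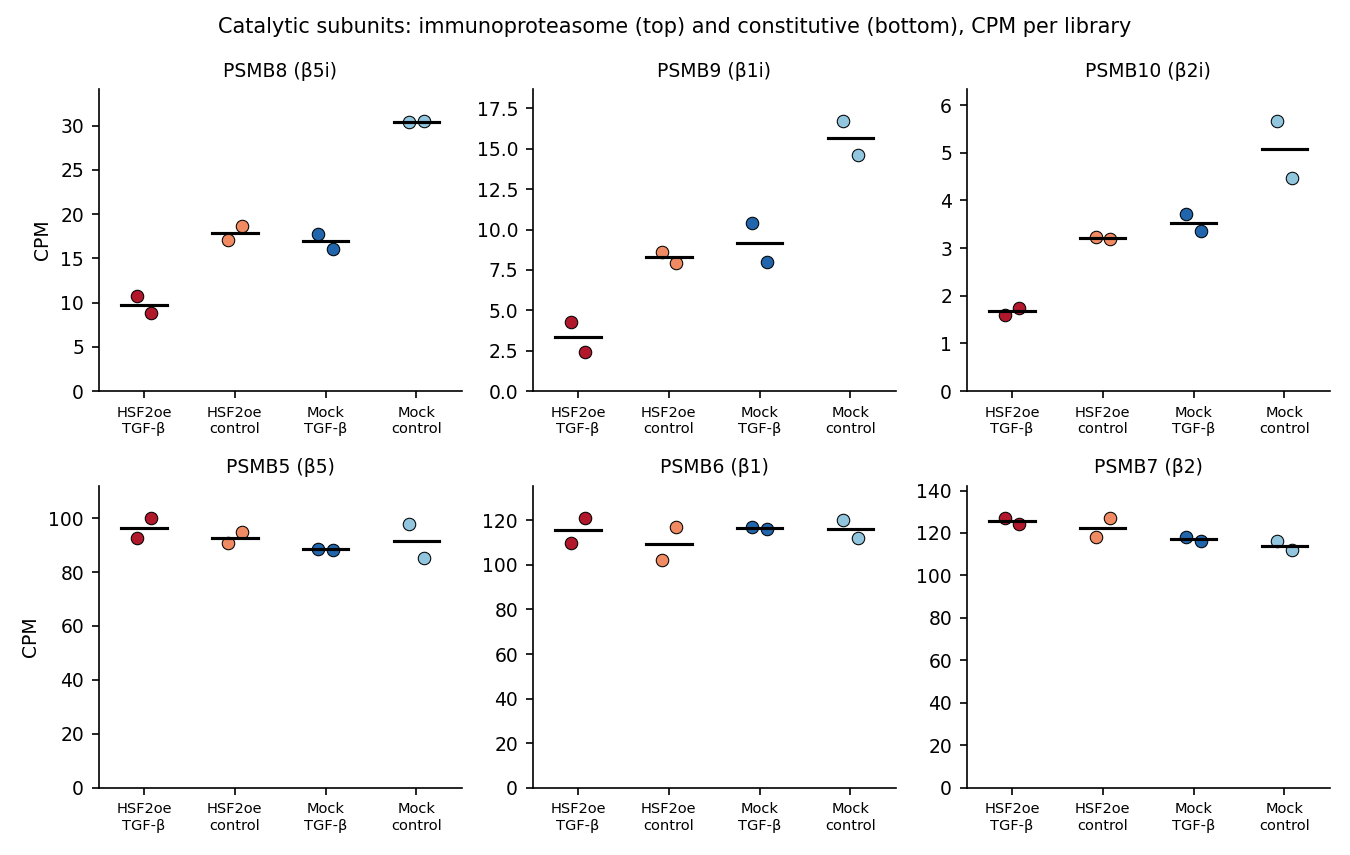
CPM (vertical axes from 0) of the immunoproteasome catalytic subunits PSMB8, PSMB9 and PSMB10 in the top row and of their constitutive counterparts PSMB5, PSMB6 and PSMB7 in the bottom row; points are libraries, bars the mean of 2. The top row is lowest in HSF2oe TGF-β cells (9.74, 3.36 and 1.67 CPM on average) and highest in Mock control cells (30.5, 15.7 and 5.07 CPM), and the bottom row is flat.

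Immunoproteasome genes are known to be high in immune cells, and markers of such cells were checked. Of 5 blood markers, HBB and CD3E were among those with 0 counts in every library, while PTPRC reached at most 0.681 CPM and CD14 at most 3.63 CPM. Their summed level was 0.591 to 0.81 CPM in HSF2oe TGF-β cells, 1.48 to 2.08 CPM in HSF2oe control cells, 2.21 to 2.46 CPM in Mock TGF-β cells and 2.64 to 4.05 CPM in Mock control cells. The lowest and the highest group were the same as for the immunoproteasome subunits, and the part of such cells in their change was not tested. Fewer cells that express a gene and less RNA of it per cell cannot be told apart in these bulk libraries.

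Among the activators, both PA28αβ subunits fell, PSME4 rose with TGF-β, and PSME3 and PSMF1 were not past the threshold. PSME1 had 31 and 28.7 CPM in HSF2oe TGF-β cells, 39.8 and 42.5 CPM in HSF2oe control cells, 46 and 40.9 CPM in Mock TGF-β cells and 56.5 and 55 CPM in Mock control cells. Every comparison of 2 groups ran without overlap, and the mean with both treatments was 53.5% of the Mock control mean. PSME1 fell by 0.49 with HSF2oe (SE 0.07, adjusted p = 2.31e-04, edgeR) and fell by 0.41 with TGF-β (SE 0.07, adjusted p = 9.30e-04), both averaged, neither call being lost without any 1 library. The 4 single comparisons passed too, at -0.54 for HSF2oe over Mock in the presence of TGF-β and -0.44 in its absence, and -0.46 and -0.36 for TGF-β in HSF2oe and Mock cells. Of these, only HSF2oe over Mock with TGF-β held without each library. The HSF2oe call without TGF-β was lost without Mock control 1, Mock control 2 or HSF2oe control 1 (adjusted p = 0.0612 to 0.142). The TGF-β call was lost in HSF2oe cells without HSF2oe control 2 or HSF2oe TGF-β 2 (adjusted p = 0.0974 and 0.116) and in Mock cells without Mock control 1, Mock control 2 or Mock TGF-β 2 (adjusted p = 0.0845 to 0.24).

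PSME2, whose gene lies near PSME1 on chromosome 14, had 61.1 and 64.1 CPM in HSF2oe TGF-β cells, 66.6 and 77.2 CPM in HSF2oe control cells, 79.7 and 79.6 CPM in Mock TGF-β cells and 79.8 and 79.8 CPM in Mock control cells. All 4 HSF2oe libraries lay below all 4 Mock libraries. It fell by 0.25 with HSF2oe averaged (SE 0.07, adjusted p = 0.015, edgeR) and fell by 0.35 with TGF-β present (SE 0.10, adjusted p = 0.0248), with -0.15 (adjusted p = 0.356) without TGF-β. The TGF-β values were -0.20 in HSF2oe cells and -0.00 in Mock cells, neither past the threshold. The averaged call was lost without Mock control 2, HSF2oe control 1 or HSF2oe TGF-β 1 (adjusted p = 0.0506 to 0.0872) and on library totals alone (-0.11, adjusted p = 0.28). The call with TGF-β present was lost without any 1 of its 4 libraries (adjusted p = 0.0657 to 0.178) and on library totals alone (-0.15, adjusted p = 0.3).

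PSME4 had 156 and 131 CPM in HSF2oe TGF-β cells, 138 and 109 CPM in HSF2oe control cells, 138 and 147 CPM in Mock TGF-β cells and 101 and 104 CPM in Mock control cells. It rose by 0.47 with TGF-β in Mock cells (SE 0.12, adjusted p = 0.0198, edgeR), where the groups did not overlap, and by 0.34 averaged over both transfections (SE 0.09, adjusted p = 0.0112). In HSF2oe cells the libraries overlapped (0.21, adjusted p = 0.364). The averaged call was lost without HSF2oe control 2 or HSF2oe TGF-β 1 (adjusted p = 0.0571 and 0.0514), the Mock call without Mock control 1, Mock control 2 or Mock TGF-β 2 (adjusted p = 0.0744 to 0.131), and both on library totals alone (0.13 and 0.21, adjusted p = 0.241 and 0.205).

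PSME3 ran from 152 to 153 CPM in HSF2oe TGF-β cells and from 117 to 134 CPM in Mock TGF-β cells, and its averaged HSF2oe value of 0.19 missed the threshold (adjusted p = 0.0525, edgeR). With HSF2oe control at 140 CPM in both libraries and Mock control at 136 and 126 CPM, all 4 HSF2oe libraries lay above all 4 Mock libraries. PSMF1 had 107 and 111 CPM in HSF2oe TGF-β cells, 99.6 and 108 CPM in HSF2oe control cells, 115 and 103 CPM in Mock TGF-β cells and 116 and 102 CPM in Mock control cells. These overlap, and its averaged values were -0.03 with HSF2oe and 0.03 with TGF-β.

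**Figure D3:**
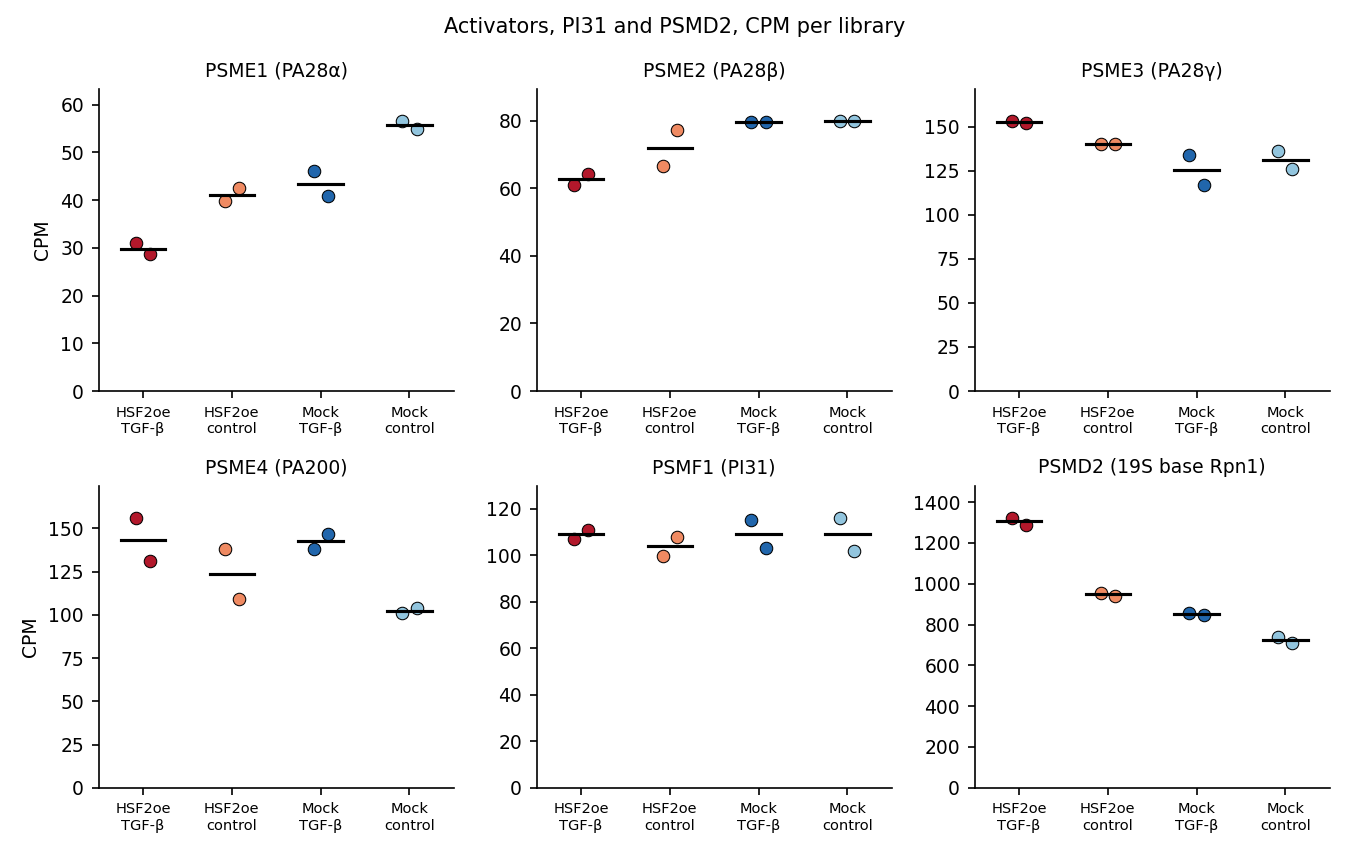
CPM (vertical axes from 0) of PSME1, PSME2, PSME3, PSME4, PSMF1 and PSMD2 per library, with bars at the mean of 2. PSME1 falls to 29.8 CPM on average in HSF2oe TGF-β cells against 55.8 CPM in Mock control cells, whereas PSMD2 is at 1306 CPM against 723 CPM.

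In the 19S particle, PSMD2 had the largest averaged rise with HSF2oe of the proteasome genes past the threshold. It had 1322 and 1290 CPM in HSF2oe TGF-β cells, 957 and 939 CPM in HSF2oe control cells, 858 and 847 CPM in Mock TGF-β cells and 738 and 708 CPM in Mock control cells, on 207865 counts in all and with no exonic base shared with another gene. The 4 groups did not overlap at any point, and the level with both treatments was 181% of the Mock control mean. PSMD2 rose by 0.50 with HSF2oe averaged (SE 0.07, adjusted p = 1.36e-04, edgeR), by 0.62 with TGF-β present (SE 0.10, adjusted p = 8.23e-04) and by 0.39 without it (SE 0.10, adjusted p = 0.0188). With TGF-β it rose by 0.35 averaged (SE 0.07, adjusted p = 0.00208) and by 0.46 in HSF2oe cells (SE 0.10, adjusted p = 0.00826), with 0.24 (adjusted p = 0.13) in Mock cells. The averaged HSF2oe call and the one with TGF-β present held under every alternative run. The HSF2oe call without TGF-β was lost without any 1 of its 4 libraries (adjusted p = 0.0519 to 0.151), the TGF-β call in HSF2oe cells without HSF2oe control 2 (adjusted p = 0.0601), and both TGF-β calls on library totals alone (0.14 averaged and 0.30 in HSF2oe cells, adjusted p = 0.142 and 0.0655).

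The other base scaffolds were not past the threshold. PSMD1, the other large scaffold of the base, ran from 141 to 167 CPM with averaged values of 0.02 for HSF2oe and -0.09 for TGF-β, and PSMD4, a ubiquitin receptor, from 98.2 to 122 CPM with 0.09 and 0.07. Of the 17 base and lid genes, 4 rose with HSF2oe averaged and 0 fell, against 15.2% and 17.3% of all genes: PSMD2, the lid scaffold PSMD12 (0.28, SE 0.07, adjusted p = 0.00694, edgeR), the deubiquitinase PSMD14 (0.20, SE 0.06, adjusted p = 0.0288) and the ATPase PSMC1 (0.20, SE 0.07, adjusted p = 0.0459). PSMD12 had 53.5 and 54.3 CPM in HSF2oe TGF-β cells, 48.9 and 50.9 CPM in HSF2oe control cells, 40.2 and 44.8 CPM in Mock TGF-β cells and 41.7 and 43.9 CPM in Mock control cells, with every HSF2oe library above every Mock library. Its averaged call held without each library, while its call with TGF-β present (0.34, adjusted p = 0.0249) was lost without Mock TGF-β 1, HSF2oe TGF-β 1 or HSF2oe TGF-β 2 (adjusted p = 0.0858 to 0.151). Neither of the last 2 calls was stable, and both were lost without the low-count filter (adjusted p = 0.0518 for PSMD14 and 0.0826 for PSMC1), the PSMC1 call also by DESeq2 (adjusted p = 0.0909). The PSMD14 call was lost without 7 of the 8 libraries, HSF2oe control 2 being the exception (adjusted p = 0.052 to 0.101), and the PSMC1 call without 7 of the 8, Mock control 1 being the exception (adjusted p = 0.0537 to 0.159). PSMC1 shares 76.1% of its exonic bases with NRDE2 on the other strand and has 13 pseudogene rows with 477 counts, so its counts are uncertain. With TGF-β averaged, PSMD2 was the 1 gene of these 17 past the threshold.

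The 14 constitutive core genes had 0 calls in every comparison, with 0 or 1 gene at an unadjusted p under 0.05 in each (edgeR), and 0 calls by DESeq2 and limma. On library totals alone 3 of them rose with HSF2oe averaged and 3 fell with TGF-β averaged. Leaving aside PSMA2 with its few counts, their averaged log2 fold changes lay between -0.13 (PSMA4) and 0.12 (PSMA3) for HSF2oe and between -0.02 (PSMA1) and 0.17 (PSMA6) for TGF-β. The 95% intervals of these 13 genes stayed between -0.27 and 0.27 for HSF2oe and between -0.23 and 0.36 for TGF-β. Summed over the 14 genes the level was 1281 and 1307 CPM in HSF2oe TGF-β cells, 1221 and 1286 CPM in HSF2oe control cells, 1300 and 1269 CPM in Mock TGF-β cells and 1321 and 1201 CPM in Mock control cells. The groups overlap. The summed level of the 6 ATPases ran from 667 to 719 CPM. That of the 8 lid genes was 939 and 940 CPM in HSF2oe TGF-β cells, above the other 6 libraries, which ran from 850 to 925 CPM. The summed immunoproteasome level, by contrast, was 16.6 and 13 CPM in HSF2oe TGF-β cells, 28.9 and 29.8 CPM in HSF2oe control cells, 32 and 27.4 CPM in Mock TGF-β cells and 52.8 and 49.6 CPM in Mock control cells.

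Of the 7 assembly chaperones, PSMG3, a subunit of the PAC3-PAC4 pair that helps build the alpha ring, was the 1 gene past the threshold. It had 24.7 and 26.3 CPM in HSF2oe TGF-β cells, 30.6 and 29 CPM in HSF2oe control cells, 22.5 and 21.7 CPM in Mock TGF-β cells and 31.4 and 26.9 CPM in Mock control cells, and all 4 TGF-β libraries lay below all 4 control libraries. It fell by 0.31 with TGF-β averaged (SE 0.08, adjusted p = 0.0114, edgeR) and fell by 0.40 in Mock cells (SE 0.11, adjusted p = 0.0316), with -0.23 (adjusted p = 0.272) in HSF2oe cells. The averaged call was lost without Mock control 1 (-0.26, adjusted p = 0.0607) and the Mock call without Mock control 1, Mock TGF-β 1 or Mock TGF-β 2 (adjusted p = 0.0862 to 0.261), by DESeq2 (0.0507) and when the 4 Mock libraries were fitted alone (0.0583). PSMD5, PSMD9 and PSMD10, which help build the base, had averaged values between -0.21 and 0.14, none past the threshold.

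**Figure D4:**
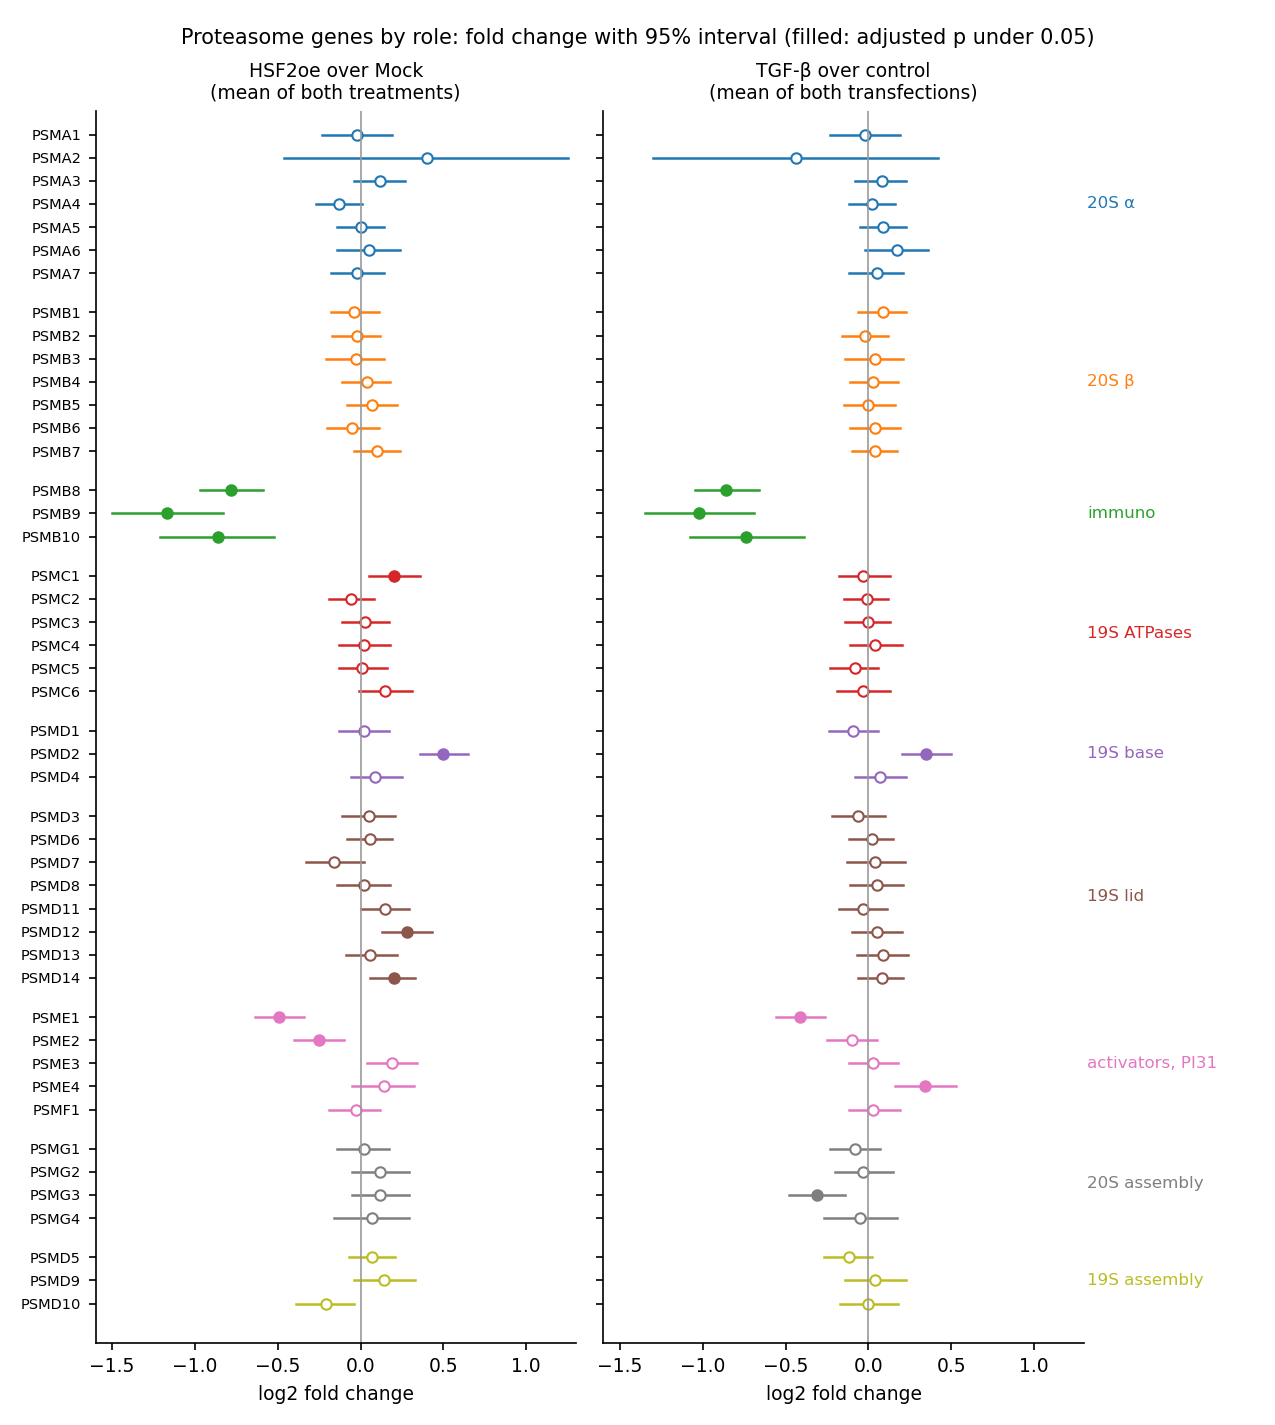
Log2 fold change (horizontal axes) of the 46 proteasome genes tested, by role from top to bottom, for HSF2oe over Mock (left) and TGF-β over control (right), each averaged over the other factor; lines are 95% intervals, and filled points have an adjusted p under 0.05. Most core and ATPase genes lie near 0, apart from PSMA2 with its wide intervals (0.40 and -0.44) and the called ATPase PSMC1 (0.20 with HSF2oe), while PSMB8, PSMB9, PSMB10 and PSME1 fall in both panels, and PSMD2 rises in both.

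Most of the listed genes of class I antigen presentation, which work with the immunoproteasome, shared the averaged fall with HSF2oe. More of them fell with TGF-β present than without it, and they shared less of the fall with TGF-β. Of 12 listed genes, 7 fell and 0 rose with HSF2oe averaged, and 4 fell and 1 rose with TGF-β averaged, against 17.3% lower and 15.2% higher with HSF2oe and 10% lower and 10.1% higher with TGF-β among all genes (6 and 6 fell and 0 rose on library totals alone). The single comparisons were uneven. HSF2oe over Mock gave 8 falls with TGF-β present and 3 without it, against 11.9% and 7.22% of all genes. TGF-β gave 4 falls and 0 rises in HSF2oe cells, against 3.82% and 4.45%. In Mock cells it gave 0 falls and 2 rises, against 6.5% and 7.32%. The 3 falls without TGF-β were those of HLA-B, HLA-C and TAPBP, and none of these calls held without each library. On library totals alone HLA-B and HLA-C had -0.23 and -0.30, not past the threshold. The difference of the TGF-β effects was past the threshold for 0 of the 12. The rise, that of TAP1, had a log2 value of 0.22, which became 0.00 on library totals, and the call was lost without the low-count filter (adjusted p = 0.0877) and without 7 of the 8 libraries, HSF2oe TGF-β 2 being the exception. Of the falls, that of NLRC5 with TGF-β was lost without 5 libraries (Mock control 1, Mock control 2, Mock TGF-β 2, HSF2oe control 1 or HSF2oe TGF-β 2), and that of ERAP1 with HSF2oe on library totals (-0.27). TAPBP, which bridges the peptide transporter to class I molecules, fell in both (-0.56 with HSF2oe, adjusted p = 8.87e-05, and -0.29 with TGF-β, adjusted p = 0.00843, edgeR). The class I heavy chains HLA-B and HLA-C fell with HSF2oe (log2 -0.42 and -0.48, SE 0.07 and 0.08), and both had 0.13 with TGF-β, not past the threshold. Genes of this family are alike in sequence, so their counts are uncertain. B2M, their light chain, did not pass (-0.30, adjusted p = 0.108, and -0.06, adjusted p = 0.834, edgeR). It had 240 and 323 CPM in HSF2oe TGF-β cells and 257 and 343 CPM in HSF2oe control cells. Mock TGF-β cells had 296 and 416 CPM, and Mock control cells 308 and 412 CPM. Replicate 2 was the higher in every group, and the reported fit does not take out such a difference. With a replicate block, 9 of the 12 genes fell with HSF2oe averaged.

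TAP1, a subunit of the peptide transporter, starts 488 bases from PSMB9 on the other strand (RefSeq starts), and the neighbours moved in opposite directions with TGF-β in Mock cells. TAP1 had 104 and 101 CPM in Mock TGF-β cells against 76 and 71.9 CPM in Mock control cells, a rise of 0.48 (SE 0.09, adjusted p = 0.00341, edgeR), where PSMB9 fell by 0.78. On library totals alone the TAP1 value was 0.21 and not past the threshold. In HSF2oe cells TAP1 had 68.4 and 63.8 CPM with TGF-β against 67.1 and 69.1 CPM in control (-0.04, adjusted p = 0.859). With TGF-β present it was lower in HSF2oe than in Mock cells by -0.64 (SE 0.09, adjusted p = 5.53e-04), a call that held under every alternative run, and without TGF-β it had -0.12 (adjusted p = 0.447). The difference of its TGF-β effects was -0.52 (95% interval -0.80 to -0.24, adjusted p = 0.486). IRF1, a transcription factor of the interferon response, fell by 0.48 with TGF-β averaged (SE 0.07, adjusted p = 3.46e-04) and did not pass with HSF2oe.

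**Figure D5:**
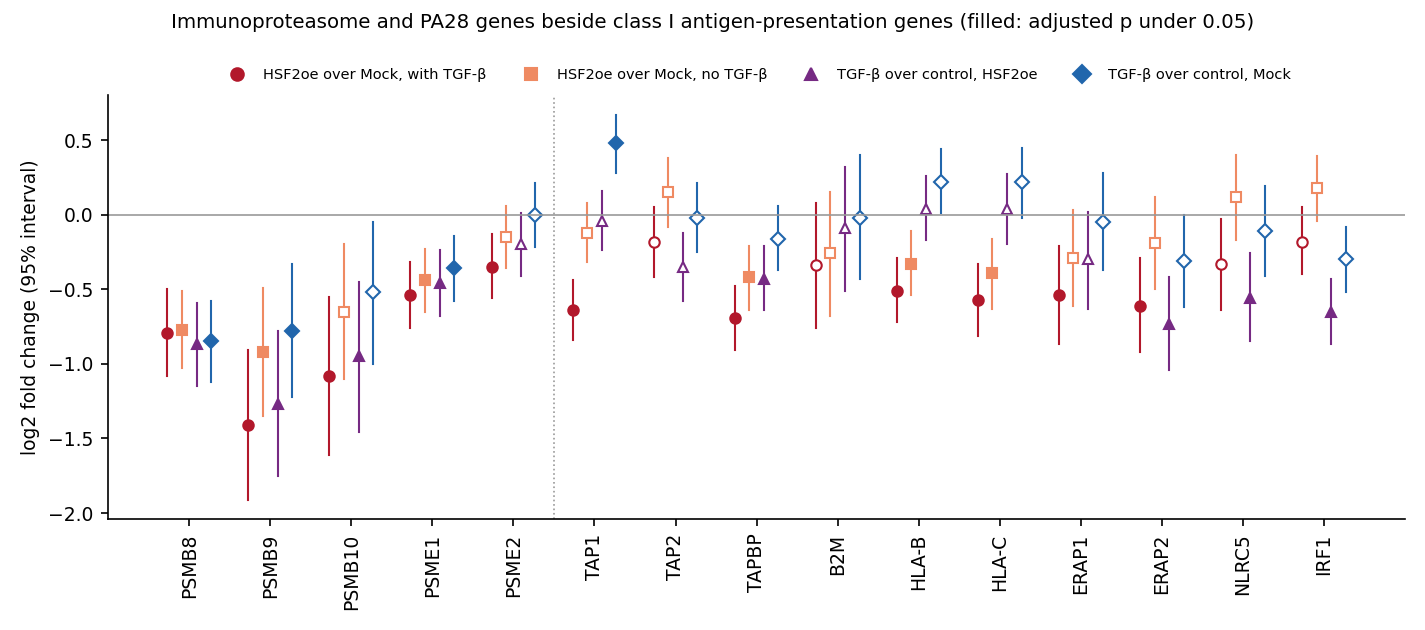
Log2 fold change with 95% interval (vertical axis) of the immunoproteasome and PA28αβ genes, left of the dotted line, and of class I antigen-presentation and interferon-response genes in the 4 comparisons of 2 groups; filled symbols have an adjusted p under 0.05. PSMB8, PSMB9 and PSME1 are below 0 in all 4, and TAP1 is at 0.48 for TGF-β in Mock cells and -0.64 for HSF2oe over Mock with TGF-β.

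Proteasome components and partners that carry other names were counted apart. Of 13 such genes, 5 rose and 0 fell with HSF2oe averaged, against 15.2% and 17.3% of all genes: ZFAND2A, a heat-inducible proteasome-binding protein (0.60, SE 0.11, adjusted p = 0.00142, edgeR), the deubiquitinases UCHL5 (0.32, SE 0.08, adjusted p = 0.00992) and USP14 (0.25, SE 0.07, adjusted p = 0.0164), AKIRIN2, needed for nuclear import of proteasomes (0.28, SE 0.08, adjusted p = 0.0117), and the ubiquitin receptor ADRM1 (0.31, SE 0.09, adjusted p = 0.0205). The calls of ZFAND2A and UCHL5 held without each library. On library totals alone 9 of the 13 rose. The call of AKIRIN2 was lost without Mock control 2 or Mock TGF-β 2, that of USP14 without Mock control 1, Mock TGF-β 1 or HSF2oe TGF-β 2, and that of ADRM1 without Mock control 2, Mock TGF-β 2, HSF2oe control 1 or HSF2oe TGF-β 1. With TGF-β averaged, ZFAND5, which activates the proteasome, TXNL1, a redox protein of the 19S particle, and POMP, the core assembly factor, rose by 0.33, 0.29 and 0.27 (adjusted p = 0.00248, 0.00457 and 0.0196). These 3 calls were lost on library totals alone (0.12, 0.08 and 0.05), where 0 of the 13 rose and 3 fell, and that of POMP also without Mock control 2, Mock TGF-β 2, HSF2oe control 2 or HSF2oe TGF-β 2.

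Of 8 genes around NFE2L1, which encodes NRF1, the factor that raises proteasome genes when proteasome activity is short, 2 rose and 1 fell with HSF2oe averaged (4 and 0 on library totals alone), counts near the 15.2% and 17.3% of all genes. MAFF, a small MAF partner of such factors, had 95.1 and 70 CPM in HSF2oe TGF-β cells, 102 and 89.1 CPM in HSF2oe control cells, 31.2 and 26.4 CPM in Mock TGF-β cells and 40.4 and 34 CPM in Mock control cells. All HSF2oe libraries lay above all Mock libraries, and MAFF rose by 1.44 (SE 0.11, adjusted p = 2.66e-06, edgeR). MAFG, another partner, rose by 0.28 (adjusted p = 0.0203), a call lost without Mock control 2, Mock TGF-β 2, HSF2oe control 1 or HSF2oe TGF-β 2. NFE2L1 itself fell by 0.19 (adjusted p = 0.0489), a call lost without any 1 of the 8 libraries and on library totals alone (-0.04), and without the low-count filter (adjusted p = 0.0881).

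PSMC3IP, which is no proteasome gene, had 15.6 and 16.5 CPM in HSF2oe TGF-β cells, 18.2 and 18.5 CPM in HSF2oe control cells, 7.68 and 5.66 CPM in Mock TGF-β cells and 12.6 and 9.84 CPM in Mock control cells. It rose by 1.00 with HSF2oe averaged (SE 0.11, adjusted p = 4.74e-05, edgeR), which held without each library, and rose by 1.28 in the presence of TGF-β and by 0.71 in its absence. It fell by 0.48 with TGF-β averaged (SE 0.11, adjusted p = 0.00851) and fell by 0.76 in Mock cells (SE 0.17, adjusted p = 0.00921), with -0.19 (adjusted p = 0.543) in HSF2oe cells. The HSF2oe call without TGF-β was lost without Mock control 2 or HSF2oe control 1 (adjusted p = 0.131 and 0.0712), the Mock TGF-β call without Mock control 1 or Mock TGF-β 2 (adjusted p = 0.0923 and 0.135), and the averaged TGF-β call without Mock TGF-β 2 (adjusted p = 0.0543). PSMC3IP shares 30.3% of its exonic bases with genes on the other strand. PSME3IP1 ran from 38.8 to 46 CPM with 0 calls.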

How the data were processed

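RNA sequencing of 8 libraries was analysed. Per the file headers, the deposited gene counts come from featureCounts 2.0.1, run in paired mode on GENCODE 38 without a strand option. That tool by default leaves out reads on several genes or places. A stranded kit is named in the labels, and the submitters' processing notes name bcl2fastq, STAR 2.7.9a and edgeR 3.34.1. A second deposited table, of log2 CPM for 13169 genes, served as an alternative. Of the count columns, 0 matched no library. Here edgeR 4.0.16 (R 4.3.3) kept 16008 genes with filterByExpr, scaled by TMM, and fitted 1 quasi-likelihood model to the 4 group means of all 8 libraries (2-sided tests, Benjamini-Hochberg adjustment over all genes, threshold 0.05). A standard error is the absolute log2 fold change over the square root of F, and 95% intervals use the fit's degrees of freedom. TPM values use the table's exonic lengths. The common biological coefficient of variation was 9.91%. Alternatives were library totals, RLE factors, DESeq2 1.42.0, 2 other filters, limma 3.58.1 on the deposited log2 values, a replicate block, single comparisons fitted alone, and leaving out each library. The script was tested on simulated counts. Upstream windows are 250 bases before RefSeq starts of GRCh38.p14, and the promoter table had no entry for 6 proteasome genes.

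The members and gene lists were chosen with earlier results of these data known. Any member may be named. Values in every library are given for PSMB5 to PSMB10, PSME1 to PSME4, PSMF1 and up to 6 called members per comparison with the smallest p, and other listed genes are named by smallest p, up to 4 per list and comparison, with a few more named after their values were seen. The libraries of a group are called biological replicates in the design text. Some genes of the lists are not reported here.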

Additional observations from a re-analysis of the deposited data

How the results depend on the processing

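The counts of members past the threshold were within 1.5 times the reported ones under RLE factors, DESeq2, both other filters, limma on the deposited log2 CPM values and single comparisons fitted alone. On library totals alone they became 20 for TGF-β in Mock cells, all lower, 19 for HSF2oe over Mock with TGF-β (15 higher, 4 lower), 23 for TGF-β averaged (all lower) and 23 for HSF2oe averaged (19 higher, 4 lower), and the median of all genes moved to -0.27, 0.19, -0.22 and 0.14. On that scale PSMB5 had -0.21 with TGF-β averaged, past the threshold, against 0.00 in the reported fit. Leaving out 1 library gave 1 to 6 members for TGF-β in Mock cells (1 without Mock control 1 or Mock TGF-β 2), 2 to 5 for TGF-β in HSF2oe cells (2 without HSF2oe control 2), 1 to 5 for HSF2oe over Mock without TGF-β (1 without HSF2oe control 1), 5 to 8 for HSF2oe over Mock with TGF-β (5 without HSF2oe TGF-β 1), 7 to 8 for TGF-β averaged and 7 to 9 for HSF2oe averaged. Of 42 calls of members over all comparisons, 20 held under every alternative, among them all 6 of PSMB8 and the averaged ones of PSMB9, PSMB10 and PSME1. Same-numbered replicates deviated together with correlations of 0.05 to 0.16, over 0.1 in 2 of the 6 pairs of groups, so the numbers were not taken to pair the libraries. A replicate block gave 7, 5, 6, 10, 8 and 13 members in the order TGF-β in Mock cells, TGF-β in HSF2oe cells, HSF2oe without TGF-β, HSF2oe with TGF-β, TGF-β averaged and HSF2oe averaged, and 0 for the difference of the TGF-β effects. With HSF2oe averaged the block gave 8 rises in place of 5 among the 13 proteasome genes under other names. Among the 12 listed genes of class I antigen presentation it gave 9 falls in place of 7 with HSF2oe averaged. With TGF-β present, HSF2oe gave 10 falls in place of 8 among these 12. PSMA2, with 157 counts, had 95% intervals of -0.46 to 1.25 for HSF2oe and -1.30 to 0.42 for TGF-β.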

Other observations

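Among 10 shuttle and p97 genes tested, the ubiquitin shuttle UBQLN2 fell by 0.25 with HSF2oe averaged (SE 0.07, adjusted p = 0.0186, edgeR). The UBQLN2 call was lost without Mock control 2, Mock TGF-β 1, HSF2oe control 1 or HSF2oe TGF-β 1 and on library totals alone (-0.10). DDI1 had 0 counts in every library.

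With TGF-β averaged, the small MAF genes MAFK and MAFG rose by 0.47 and 0.26 (adjusted p = 0.00285 and 0.0376, edgeR), and NFE2L3, a relative of NFE2L1, fell by 0.71 (adjusted p = 0.0301). The MAFK call held under every alternative. That of MAFG was lost on library totals alone (0.05) and without Mock control 2, Mock TGF-β 1, Mock TGF-β 2, HSF2oe control 2, HSF2oe TGF-β 1 or HSF2oe TGF-β 2. That of NFE2L3 was lost without Mock control 1, Mock TGF-β 2, HSF2oe control 1 or HSF2oe TGF-β 2.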
